A study of Mus musculus with 6 samples.

Results

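The miRNAs described here are the arms of miR-199a, miR-199b and miR-214, which are typical of fibroblasts and other mesenchymal cells. They were chosen by name, and all 6 (miR-199a-5p, miR-199a-3p, miR-199b-5p, miR-199b-3p, miR-214-3p and miR-214-5p) were among the 1506 miRNAs of the table, of which 1198 are known and 308 are predicted. Small RNAs were sequenced from 6 cultures of primary cortical OPCs, the precursors of myelin-forming oligodendrocytes, from wild-type C57BL/6 pups taken within a day of birth. Of these, 3 received the plasma clotting protein fibrinogen at 2.5 mg/mL, and 3 were controls, called untreated here. The OPCs were shaken off mixed glia that had been grown from cortex after the meninges and blood vessels were removed, so the cultures were enriched by dissection and shaking and not sorted. The length of the treatment is not given in the sources used here. The column headers name the libraries by mouse number, with the same numbers in both groups. Whether libraries with the same number came from the same mouse is not stated, so the p-values measure the spread between these libraries.

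A miRNA is cut from a hairpin-shaped precursor, whose left arm gives the 5p and whose right arm gives the 3p miRNA. The seed, bases 2 to 8 of the miRNA, carries most of the pairing with target mRNAs. Mir199a-2 and Mir214 lie in one long non-coding RNA, Dnm3os, that runs against the dynamin gene Dnm3, and loss of Dnm3os in mice is known to disturb the skeleton and growth. The miR-199 and miR-214 miRNAs are known from mesenchyme, fibroblasts and vessel walls, where they are linked to scarring, and they are not typical of neurons or of the oligodendrocyte lineage.

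Of the 6 members, 5 had an entry in the RefSeq miRNA table used (build GRCm38.p6), and these share 4 mature sequences. They are shown with the seed in capitals because the sharing decides how the reads can be assigned. miR-199a-3p and miR-199b-3p have one sequence, while the seeds of the 5p arm of miR-199a and of both arms of miR-214 differ from it and from each other.

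miR-199a-5p: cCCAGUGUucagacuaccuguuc
miR-199a-3p and miR-199b-3p: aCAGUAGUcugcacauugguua
miR-214-5p: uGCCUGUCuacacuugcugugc
miR-214-3p: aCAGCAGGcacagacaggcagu

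The miR-199 sequences come from 3 precursors, shown whole because a read of the 3p arm matches each of them. The capitals mark the mature miRNAs that the RefSeq table lists in each hairpin.

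Mir199a-1: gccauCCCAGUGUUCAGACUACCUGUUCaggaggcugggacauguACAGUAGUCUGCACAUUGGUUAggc
Mir199a-2: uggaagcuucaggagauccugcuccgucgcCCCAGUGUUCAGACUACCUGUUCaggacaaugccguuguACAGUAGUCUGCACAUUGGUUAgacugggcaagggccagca
Mir199b: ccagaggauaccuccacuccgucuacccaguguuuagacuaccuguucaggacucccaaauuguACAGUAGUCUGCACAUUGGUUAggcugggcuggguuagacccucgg

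Both miR-199a precursors hold the same 5p and 3p sequences, so a read of miR-199a cannot be placed on one of them. In the Mir199b hairpin, the stretch closest to the 23 bases of miR-199a-5p differs from it by 1 substitution, C10U, counted from the 5′ end of miR-199a-5p. Reads of the 5p arms of miR-199a and miR-199b can thus be told apart by 1 base, and reads of their 3p arms not at all.

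On GRCm38.p6, Mir199a-2 lies on chromosome 1 from 162217814 to 162217923 and Mir214 from 162223368 to 162223477, both on the plus strand. They are 5444 bases apart inside Dnm3os (162217623 to 162225550). Mir199a-1 lies on chromosome 9 from 21496495 to 21496564 on the minus strand, and Mir199b on chromosome 2 from 32318460 to 32318569 on the plus strand. In GENCODE vM39, an annotation of GRCm39, Mir199a-2 and Mir214 overlap an exon of Dnm3os and an intron of Dnm3 on the opposite strand. There Mir199a-1 lies in an intron of the dynamin gene Dnm2 and Mir199b in an intron of Dnm1, both again on the opposite strand, and Mir199a-1 also overlaps an exon of the non-coding RNA Gm67586 on its own strand.

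Levels are given as TPM, the name used in the table, and are RPM, that is, reads scaled to a total of the library and not corrected for length. One read was worth 0.0669 to 0.0841 TPM, and the libraries held 12120909 to 13624613 miRNA reads in fibrinogen-treated and 11897645 to 14847034 in untreated OPCs. The 10 most abundant miRNAs took 65.5% to 68.5% of them. The list of 5 oligodendrocyte-lineage miRNAs, such as miR-138-5p and miR-338-3p, was measured in every library and summed to 11455 to 14340 TPM in fibrinogen-treated and 12246 to 16651 TPM in untreated OPCs. Groups were compared with limma on log2(TPM + 1) for the 607 miRNAs that reached 1 TPM in 3 or more libraries, and p was adjusted over all of these by the Benjamini-Hochberg method. The median log2 fold change of these 607 was 0.125, so a fold change is to be read against this shift. Of the 5 oligodendrocyte-lineage miRNAs none was called higher or lower, and they did not all move alike. The log2 fold change was 0.91 for miR-219a-2-3p (adjusted p = 0.0836 from limma), 0.09 for miR-219a-5p and 0.002 for miR-338-5p. It was -0.13 for miR-138-5p and -0.16 for miR-338-3p. miR-138-5p, the most abundant of them, weighed most in their sum.

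None of the 4 members that could be tested (miR-199a-3p, miR-199b-3p, miR-199a-5p and miR-199b-5p) differed between fibrinogen-treated and untreated OPCs at an adjusted p under 0.05, where 2.8% of all tested miRNAs did and 2.14% were higher in fibrinogen-treated OPCs. At an unadjusted p under 0.05 in this fit the count of members was also 0, where 25.7% of all tested miRNAs passed. Both 3p rows, which hold one sequence, were under that p in other fits of limma. For miR-199a-3p the unadjusted p was 0.0155 with the replicate number as a block and 0.0388 over known miRNAs alone (adjusted p = 0.113 and 0.145). It was also under 0.05 without fibrinogen-treated library 2 (0.0435, adjusted p = 0.257) or untreated library 3. In the same order, 161 of 607, 161 of 516, 112 of 592 and 172 of 596 tested miRNAs were under that p in these fits. The cut-offs of the study (a change beyond 1 on the log2 scale at an unadjusted p under 0.05) were met by 0 members and by 3.95% of all tested miRNAs. They were applied here to the limma fit, whereas the study used edgeR, so the counts are not those of the study. DESeq2 and edgeR's quasi-likelihood test called 0 members too, where they called 66 and 12 of all 607 tested miRNAs. In limma the log2 fold changes of the 4 members were all above 0, as were those of 62.9% of all tested miRNAs. The median was 0.50 for the members against 0.125 for all tested miRNAs. Both this count of 4 and the members' median rest on 3 sequences, because the 3p rows repeat each other. miR-214-3p and miR-214-5p stayed under the level tested, with 5 reads or fewer in a library.

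miR-199a-3p, which is known in human cells to restrain the growth regulators MTOR and MET, was the most abundant member. It had 425, 335 and 487 TPM in fibrinogen-treated libraries 1, 2 and 3, and 227, 231 and 409 TPM in untreated libraries 1, 2 and 3. Untreated library 3 was thus above fibrinogen-treated library 2 and close to library 1, while untreated libraries 1 and 2 were below every fibrinogen-treated library. The means were 416 ± 76.6 TPM in fibrinogen-treated and 289 ± 104 TPM in untreated OPCs (SD, n = 3 each), with a log2 fold change of 0.56 (limma, standard error 0.26, 95% interval -0.05 to 1.17, adjusted p = 0.21). The spread among the untreated libraries, a coefficient of variation of 35.9%, was far above the 1.81% to 2.70% that counting error alone gives for the distinct reads of a library. An interval of this width holds both 0 and a log2 fold change above 1.

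**Figure D1:**
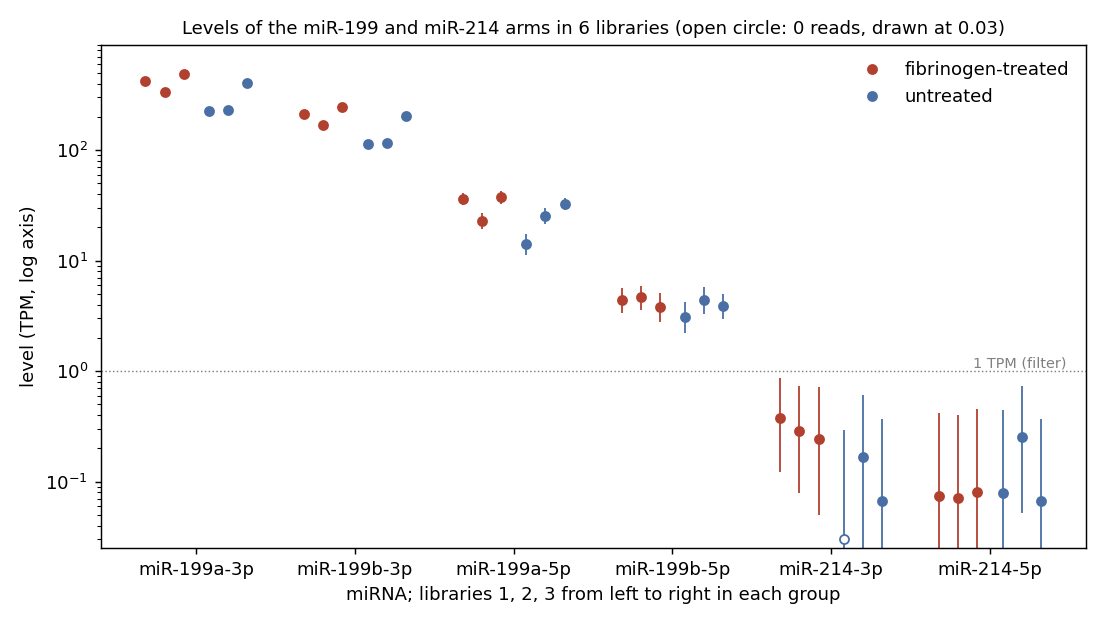
Level of each member in TPM (log axis) in the fibrinogen-treated and untreated libraries 1 to 3, from left to right. Points are single libraries and bars are exact 95% Poisson intervals for counting error. The 3p arms lie above 100 TPM, miR-199a-5p at 14.1 to 37.4 TPM, miR-199b-5p at 3.09 to 4.67 TPM, and both miR-214 arms below 1 TPM.

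miR-199b-3p had 212, 168 and 244 TPM in fibrinogen-treated libraries and 113, 116 and 204 TPM in untreated libraries. In reads, the row of miR-199a-3p held exactly 2 times the row of miR-199b-3p in 6 of 6 libraries, for example 5690 and 2845 reads in fibrinogen-treated library 1. The rows therefore repeat one measurement, and the fold change of miR-199b-3p, 0.56 (standard error 0.26, adjusted p = 0.214 from limma), adds nothing to that of miR-199a-3p. A factor of 2 is what a listing of each read once per precursor gives, since the sequence lies in 2 miR-199a precursors and 1 miR-199b precursor.

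miR-199a-5p, known from heart muscle cells of the rat to act on the hypoxia factor Hif1a, had 36.3, 22.9 and 37.4 TPM in fibrinogen-treated libraries, against 14.1, 25.4 and 32.8 TPM in untreated libraries. Fibrinogen-treated library 2 was below untreated libraries 2 and 3, so the groups overlapped. The fold change in limma was 0.45 on the log2 scale (standard error 0.34, adjusted p = 0.418). Its reads were even in 6 of 6 libraries, as a listing for both of its precursors would make them. Counted once, they were 243, 159 and 230 reads in fibrinogen-treated and 89, 151 and 245 reads in untreated libraries.

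miR-199b-5p, known in the mouse heart to act on the kinase Dyrk1a, was the rarest member above 1 TPM. It had 4.40, 4.67 and 3.83 TPM in fibrinogen-treated libraries and 3.09, 4.37 and 3.88 TPM in untreated libraries. These values overlapped within their counting error, since they stand for 39 to 65 reads. The fold change in limma was 0.16 on the log2 scale (standard error 0.18, 95% interval -0.27 to 0.58, adjusted p = 0.606), close to the median of all tested miRNAs. Unlike the other miR-199 rows, it did not follow untreated library 3, which was 1.04 times the mean of untreated libraries 1 and 2 for miR-199b-5p, against 1.66 times for miR-199a-5p and 1.78 times for miR-199a-3p.

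**Figure D2:**
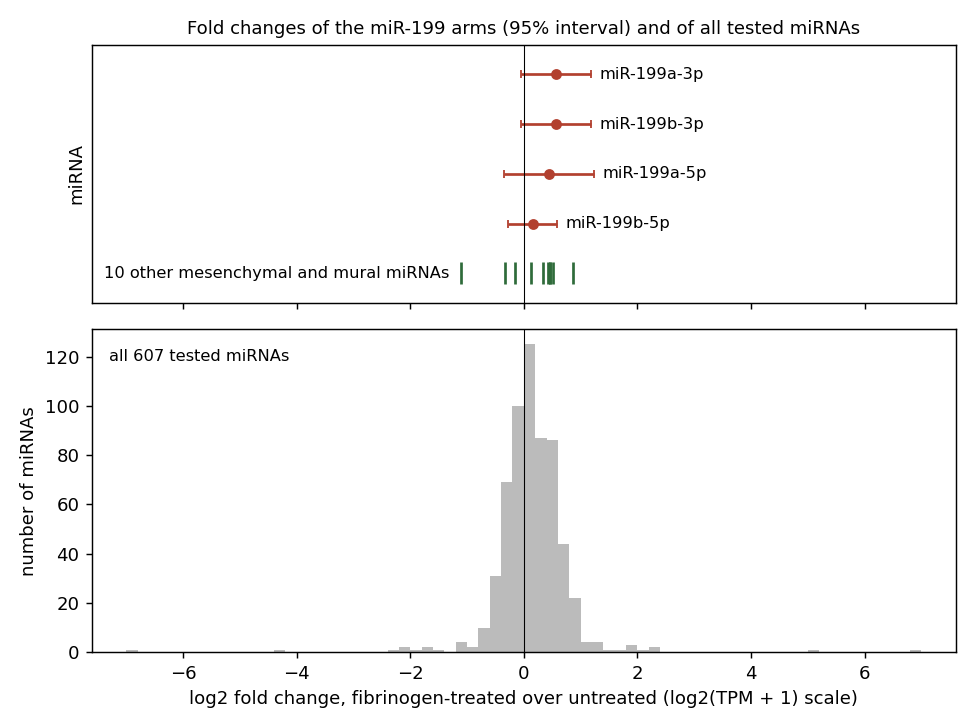
Upper panel, log2 fold change of the 4 tested miR-199 arms (fibrinogen-treated over untreated, log2(TPM + 1) scale) with the 95% interval of limma, and ticks for 10 other mesenchymal and mural miRNAs. The lower panel is a histogram of all 607 tested miRNAs on the same axis. Every interval of the members crosses 0.

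The 3p arm was the major product of miR-199. With each sequence counted once, it took 90.4%, 91.2% and 91.5% of the miR-199 reads in fibrinogen-treated libraries and 91.8%, 87.1% and 91.0% in untreated libraries. The ratio of miR-199a-3p to miR-199a-5p was 11.7, 14.7 and 13.0 in fibrinogen-treated libraries and 16.1, 9.11 and 12.5 in untreated libraries. The groups overlapped, and the log2 ratio differed by 0.10 (exact permutation test, two-sided, p = 0.8). Since a listing per precursor raises both miR-199a rows alike at 2 precursors each, this ratio also holds for the 3p sequence listed in 1 row against the distinct reads of miR-199a-5p. The 3p sequence also lies in Mir199b, so the ratio is not that of the miR-199a arms alone.

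On the 5p side, where the sequences differ, miR-199a led miR-199b. The ratio of the miR-199a-5p row to the miR-199b-5p row was 8.24, 4.89 and 9.79 in fibrinogen-treated and 4.56, 5.81 and 8.45 in untreated libraries. With the reads of miR-199a-5p counted once it was 4.12, 2.45 and 4.89 in fibrinogen-treated and 2.28, 2.90 and 4.22 in untreated libraries, and thus above 1 in every library. Neither this log2 ratio, with a difference of 0.27, nor that of miR-199b-3p to miR-199b-5p, with 0.37, differed between groups beyond the libraries' spread (exact permutation tests, two-sided, p = 0.6 and 0.5). Both rested on single libraries. The difference of 0.27 became 0.064 without fibrinogen-treated library 3, 0.0662 without untreated library 1, 0.51 without untreated library 3 and 0.564 without fibrinogen-treated library 2. That of 0.37 became 0.125 without untreated library 2, 0.164 without fibrinogen-treated library 3, 0.578 without fibrinogen-treated library 2 and 0.622 without untreated library 3. The miR-199b-3p row holds a sequence that all miR-199 precursors carry, so its ratio to miR-199b-5p is not that of the Mir199b arms alone. The 3 ratios are also not independent, since they share rows and the 3p rows repeat one measurement. Adjusted over these 3 ratios, p was 0.8 for each, and 3 against 3 libraries cannot give a p under 0.1.

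miR-214 was nearly absent. miR-214-3p, known in mouse muscle to act on the chromatin regulator Ezh2, had 5, 4 and 3 reads in fibrinogen-treated libraries and 0, 2 and 1 reads in untreated libraries. This was 0.373, 0.288 and 0.244 TPM in fibrinogen-treated and 0, 0.168 and 0.0669 TPM in untreated OPCs, where 0 reads in untreated library 1 allow up to 0.238 TPM at a limit of 3 reads. The exact 95% Poisson interval of that library reaches 0.292 TPM, above the values of fibrinogen-treated libraries 2 and 3. The groups did not overlap, as for 33.1% of all tested miRNAs, 24.4% with the higher values in fibrinogen-treated OPCs. These shares are of the 607 miRNAs that passed the filter on level, which miR-214-3p did not. Pooled, 12 reads in fibrinogen-treated against 3 reads in untreated OPCs gave a ratio of 4.07 (exact 95% interval 1.1 to 22.5, counting error only), and the exact two-sided permutation test gave p = 0.1, the smallest that 3 against 3 libraries allow. In a limma fit with no filter on low values miR-214-3p did not pass (adjusted p = 0.263). Its unadjusted p in that fit was 0.0153, where 192 of 1410 miRNAs were under 0.05. At so few reads the size of a difference could not be fixed.

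miR-214-5p had 1 read in each fibrinogen-treated library and 1, 3 and 1 reads in untreated libraries, so no difference was detectable at this depth (exact permutation test, two-sided, p = 0.8). Of the 15 miR-214 reads in fibrinogen-treated OPCs 80.0% came from the 3p arm (exact 95% interval 51.9% to 95.7%), against 37.5% of 8 reads in untreated OPCs (8.52% to 75.5%). These intervals overlap and cover counting error only. For 1 read of either miR-214 arm, the libraries held 466 to 749 reads of the miR-199 3p sequence in fibrinogen-treated and 275 to 1528 in untreated OPCs. That sequence also lies in Mir199a-1 and Mir199b, and how many of its reads came from Dnm3os cannot be read from this table, so the miRNAs of the shared transcript were not compared.

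Together the 6 members took 0.0542% to 0.0783% of the listed values in fibrinogen-treated and 0.0354% to 0.0654% in untreated libraries. The order of the levels was miR-199a-3p, miR-199b-3p, miR-199a-5p, miR-199b-5p and then the miR-214 arms, and in each of the 6 libraries the miR-199 rows kept this order. Within each library the counting intervals of miR-214-3p and miR-214-5p overlapped.

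Leaving out untreated library 3, which was high for both arms of miR-199a, brought the 3p sequence past the threshold. Without it the log2 fold change of miR-199a-3p was 0.84 (adjusted p = 0.0447 from limma) and that of miR-199b-3p 0.84 (adjusted p = 0.0478), while miR-199a-5p had 0.70 and did not pass (adjusted p = 0.208). In that fit 7.21% of 596 tested miRNAs were called, so more miRNAs passed in general. Over all miRNAs of the table, untreated library 3 was also the untreated library that correlated best with each of the fibrinogen-treated ones, with Pearson r of log2(TPM + 1) of 0.982 to 0.988, against 0.974 to 0.984 for the other two. These coefficients are across miRNAs, which are not independent replicates. Leaving out any other library gave log2 fold changes of miR-199a-3p from 0.42 to 0.71, none of them past the threshold. The fold change of miR-199a-5p was lowest, 0.12, without untreated library 1, where it was close to the median of all tested miRNAs, and that of miR-199b-5p ran from 0.05 (without untreated library 1) to 0.24 (without untreated library 2).

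**Figure D3:**
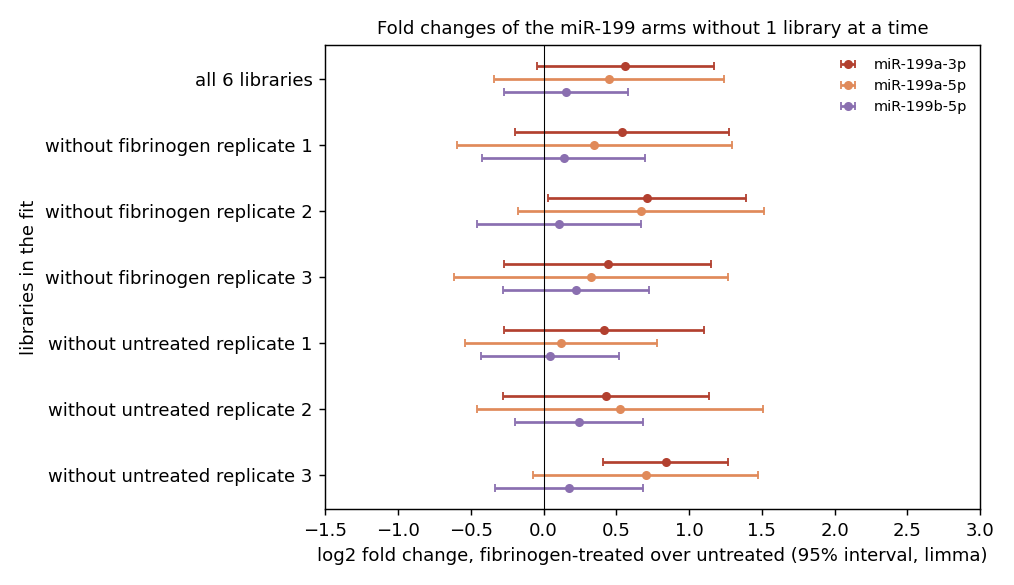
Log2 fold change of miR-199a-3p, miR-199a-5p and miR-199b-5p (fibrinogen-treated over untreated) with the 95% interval of limma, with all 6 libraries and without each in turn. The estimates stay above 0, and miR-199a-3p reaches 0.84 without untreated library 3.

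Other miRNAs of mesenchymal and mural cells, the smooth muscle cells and pericytes of vessel walls, were compared with the members. Of a list of 13, 12 were in the table and 10 were tested. None was called higher or lower by limma, and their median log2 fold change was 0.38, with 7 of 10 above 0, against 0.125 and 62.9% above 0 for all tested miRNAs. DESeq2 called 1 of 10, miR-21a-3p, lower, where it called 10.9% of all 607 miRNAs and 5.93% lower. Without untreated library 3 limma called 1 of 10, miR-10b-5p, higher, where 7.21% of all tested miRNAs were called and 6.54% were higher. Their sum was 5979 to 7686 TPM in fibrinogen-treated and 5651 to 7074 TPM in untreated OPCs, and the groups overlapped.

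miR-143-3p, known from smooth muscle, had 3649, 2642 and 3151 TPM in fibrinogen-treated and 2065, 2059 and 2453 TPM in untreated libraries. Its groups did not overlap, but it did not pass (log2 fold change 0.51, standard error 0.14, adjusted p = 0.103 from limma). miR-152-3p had 414, 332 and 391 TPM in fibrinogen-treated and 246, 257 and 352 TPM in untreated libraries (0.42, adjusted p = 0.184), and like miR-199a-3p it was high in untreated library 3. miR-21a-5p, which many dividing and activated cells make, had a fold change below 0, with 3356, 2780 and 2240 TPM in fibrinogen-treated and 3194, 3180 and 4092 TPM in untreated libraries (-0.33, adjusted p = 0.279). Members of this list thus had no common pattern over the libraries. In bulk cultures, more cells of a type and more of a miRNA per cell cannot be told apart.

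**Figure D4:**
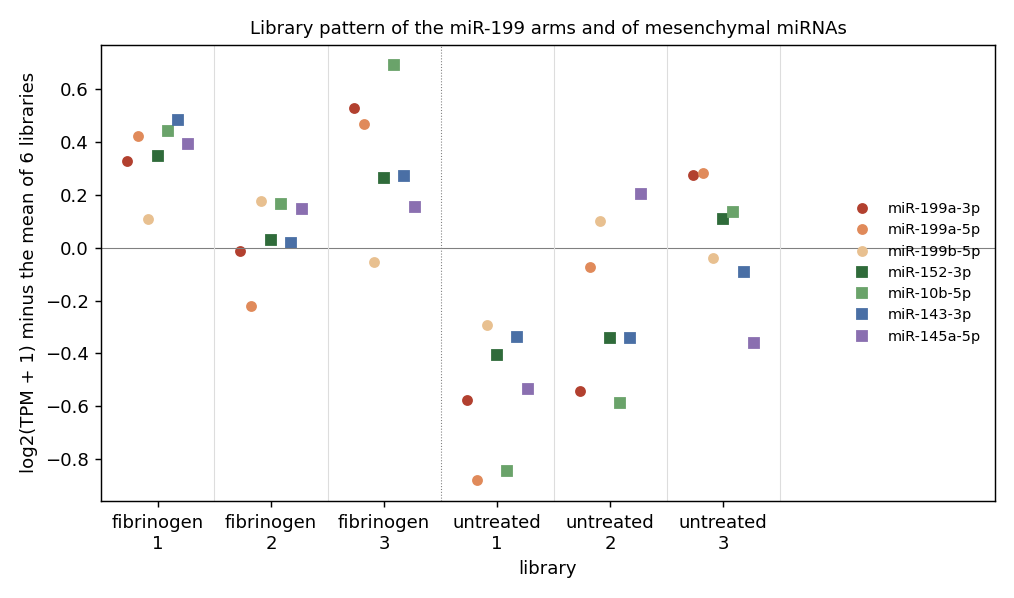
Log2(TPM + 1) of 3 miR-199 arms (circles) and 4 other mesenchymal and mural miRNAs (squares), each minus its mean over the 6 libraries, in fibrinogen-treated and untreated libraries 1 to 3. miR-199a-3p, miR-199a-5p, miR-152-3p and miR-10b-5p are above their means in untreated library 3 and below them in untreated libraries 1 and 2, while miR-145a-5p is highest among the untreated in library 2.

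Of the 510 known miRNAs tested beside the members, those most like miR-199a-3p over the 6 libraries were miR-423-5p (Pearson r = 0.975 on log2(TPM + 1)), miR-10b-5p (0.971), miR-664-5p (0.967), miR-152-3p (0.967) and miR-133a-3p (0.961). An r above 0.9 with miR-199a-3p was reached by 34 of 510. These coefficients over 6 libraries are a description without a test. miR-10b-5p, encoded in a Hox cluster, had 3.96, 3.09 and 4.88 TPM in fibrinogen-treated and 1.03, 1.43 and 3.01 TPM in untreated libraries, with the same place for untreated library 3. miR-133a-3p, a miRNA of skeletal and heart muscle, had 134, 102 and 140 TPM in fibrinogen-treated and 87.7, 94.4 and 134 TPM in untreated libraries. Most like miR-214-3p were miR-140-5p (r = 0.968), miR-450b-3p (0.965), miR-187-5p (0.949), miR-490-5p (0.944) and miR-145a-5p (0.941), but the values of miR-214-3p are steps of 1 read. Between members, r was 0.849 for the arms of miR-199a and 0.539 for miR-199a-3p and miR-214-3p.

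Markers of other cell types were summed in the same way. The list of 4 erythroid miRNAs summed to 177 to 206 TPM in fibrinogen-treated and 214 to 702 TPM in untreated OPCs, so the groups did not overlap, with none of 4 called and none at 0 in every library. Its best-known member, miR-451a, had 116, 96.4 and 112 TPM in fibrinogen-treated and 288, 428 and 107 TPM in untreated libraries, so untreated library 3, where miR-199a-3p was high, had the lowest untreated level. miR-486a-5p went the other way, the only 1 of the 4 with a log2 fold change above 0 (0.20, adjusted p = 0.715 from limma). Taken singly, 33.1% of all tested miRNAs did not overlap between groups. The lists of endothelial miRNAs (10599 to 13328 TPM in fibrinogen-treated and 10630 to 14101 TPM in untreated OPCs), of microglia and immune cells (1748 to 2073 TPM in fibrinogen-treated and 1766 to 2479 TPM in untreated OPCs) and of muscle (808 to 1221 TPM in fibrinogen-treated and 741 to 1278 TPM in untreated OPCs) overlapped between groups, with none of 2, 6 and 3 called. Epithelial miRNAs summed to 141 to 649 TPM in fibrinogen-treated and 41.8 to 182 TPM in untreated OPCs, with none of 5 called. Of 5 neuronal miRNAs, 1, miR-128-3p, was called lower, where 4 of all 607 tested miRNAs were. The list summed to 92719 to 98100 TPM in fibrinogen-treated and 116323 to 123288 TPM in untreated OPCs, so the groups did not overlap. Its log2 fold changes were -0.49 for miR-128-3p, -0.31 for miR-137-3p, -0.25 for miR-218-5p and -0.04 for miR-124-3p. miR-129-5p, with 0.52 (adjusted p = 0.119 from limma), was the only 1 of 5 above 0, so its members did not all move alike. The part of such cells in the levels of miR-199 was not tested.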

How the data were processed

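Levels of miRNAs were taken from 1 table of 6 libraries. The authors filtered the reads, removed adapters (cutadapt 1.15) and, by in-house code, duplicates, and used Bowtie 1.1.2 for mapping and miRDeep2 for counting. The paper names GRCm39 and the submitters' processing notes mm10. The deposited values, called TPM by the authors, are RPM. Dividing by the smallest value above 0 gave whole reads, within 0.1, for 99.8% to 100% of the values above 0 in a library.

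Groups followed the labels. limma 3.58.1 (R 4.3.3, eBayes with a trend) was fitted on log2(TPM + 1) over 607 miRNAs, a scale that understates changes of rare miRNAs. edgeR 4.0.16 called 12 and DESeq2 1.42.0 called 66 miRNAs on the recovered reads. Errors of levels are SDs and those of fold changes are limma's standard errors. Intervals and the limit of 3 reads for a 0 cover counting error only.

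Named miRNAs were the members, the 5 most like miR-199a-3p and miR-214-3p, and examples of marker lists. miR-21a-3p was named, and the miRNAs of the library plot picked, after their values were seen. Members and lists were chosen with earlier results of these data known.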

Additional observations from a re-analysis of the deposited data

How the results depend on the processing

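Alternatives were other pseudocounts, filters, scalings, tools, known miRNAs alone, no trend, a replicate block and leaving out 1 library. Of 4 tested members, 0 passed under every alternative except without untreated replicate 3, where 2 rows of one sequence passed. Leaving out 1 library moved that count from 0 to 2, and the log2 fold change of miR-199a-3p from 0.42 to 0.84, of miR-199b-3p from 0.42 to 0.84 and of miR-199a-5p from 0.12 (without untreated library 1) to 0.70. The fold change of miR-199b-5p was -9.97e-05 after quantile normalization and above 0 in the other settings that kept it. Median-of-ratios scaling took the median of all miRNAs to 0.00317 and miR-199a-3p to 0.43. The difference in the log2 ratio of miR-199a-3p to miR-199a-5p ran from -0.115 (without untreated library 2) to 0.295 (without untreated library 1). Of all miRNAs tested, 17 were called, against 11 with no filter, 10 with a minimum of 10 TPM, 66 with DESeq2, and 3 to 43 without 1 library. The causes were not tested. Whether the replicate numbers pair the libraries could not be settled from these data. Deviations of same-numbered libraries correlated at 0.0377, 0.233 and 0.124, and those of differently numbered libraries at -0.195 to 0.0876. With the replicate block, 0 members and 15 miRNAs passed, and miR-199a-3p kept 0.56 (adjusted p = 0.113). The alternative that counted every sequence once was chosen after seeing the data and left the difference in that ratio at 0.0968. Depth limits miR-214, where a value stands for 5 reads or fewer and 1 read more or less moves it by 0.0669 to 0.0841 TPM.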
